A study of Mus musculus with 6 samples.

Results

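Islet peptide hormones were read through 12 probe sets of 9 genes, taken by name from the 18193 genes that have a probe set with exactly 1 symbol in the platform annotation. The 9 genes were Ins2, Iapp, Ucn3, Gcg, Sst, Ppy, Pyy, Ghrl and Npy. Iapp had 4 probe sets and each of the others had 1. RNA of isolated mouse pancreatic islets was hybridised to 6 Affymetrix arrays, 3 from Vhlh knockout samples (VhlhKO) and 3 from control samples. Per the labels, Vhlh floxed alleles were removed in beta cells by Cre recombinase under RIP2, an insulin promoter, and the same model description stands on the control arrays. The labels do not say whether controls carried Cre or the floxed alleles. By their labels VhlhKO 01 was taken at 26 weeks (male), VhlhKO 02 at 20 weeks (female) and VhlhKO 03 at 18 weeks (male), and control 01, 02 and 03 had the same ages and sexes. Each array stands for a batch of islets, so p-values measure the spread between batches. The labels do not say how many mice gave a batch. Values are MAS5 signals, the authors' linear brightness per probe set, and a log2 difference is the mean log2 signal in VhlhKO minus that in control.

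Islets secrete peptide hormones from cell types that each have a leading product: insulin in beta cells, glucagon in alpha cells, somatostatin in delta cells, pancreatic polypeptide in PP cells and ghrelin in the rare epsilon cells. Beta cells release islet amyloid polypeptide and, when mature, urocortin 3 along with insulin. All are made as larger precursors, cut by prohormone convertases and stored in dense granules. The von Hippel-Lindau protein encoded by Vhlh (Vhl in the annotation) targets the alpha subunits of hypoxia-inducible factor (HIF) for breakdown in oxygenated cells. Whether the hormone transcripts differ when beta cells lack it is the question that the comparison addresses.

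RefSeq promoter windows (build GRCm38.p6) were matched for 8 of the 9 genes, in 12 entries, and Ins2 had no entry. The 250 bases before the start were searched on both strands for TATAAA (the TATA box), TGACGTCA (the cyclic AMP response element) and ACGTG or GCGTG (the core that HIF binds). The HIF core letters were in windows of 3 of the 8 genes, Sst, Pyy and Npy, and in 38.6% of all 32851 promoter entries. TGACGTCA was in the Sst window, beginning 48 bases before the start, and in 1.55% of all entries. TATAAA was in the windows of Gcg and Ppy and in 12.4% of all entries. A letter match is a description of the window and no evidence of binding. Shown are Ucn3, the member with the lowest log2 difference and no match, and Sst and Pyy, which hold HIF core letters, with every matched motif in capitals and each strand given after its coordinates.
Ucn3, chr13:3945350-3945599 (-): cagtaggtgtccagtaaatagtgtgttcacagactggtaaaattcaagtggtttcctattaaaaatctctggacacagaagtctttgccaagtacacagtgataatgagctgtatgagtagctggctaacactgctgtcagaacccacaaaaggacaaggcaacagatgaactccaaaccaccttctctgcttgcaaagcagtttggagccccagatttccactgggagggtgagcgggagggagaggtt
Sst, chr16:23890845-23891094 (-): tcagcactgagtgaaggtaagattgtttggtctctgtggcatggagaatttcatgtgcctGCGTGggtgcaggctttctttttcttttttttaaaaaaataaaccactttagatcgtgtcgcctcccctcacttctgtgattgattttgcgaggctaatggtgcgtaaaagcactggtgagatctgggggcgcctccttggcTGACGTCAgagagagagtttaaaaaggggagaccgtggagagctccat
Pyy, chr11:102107833-102108082 (-): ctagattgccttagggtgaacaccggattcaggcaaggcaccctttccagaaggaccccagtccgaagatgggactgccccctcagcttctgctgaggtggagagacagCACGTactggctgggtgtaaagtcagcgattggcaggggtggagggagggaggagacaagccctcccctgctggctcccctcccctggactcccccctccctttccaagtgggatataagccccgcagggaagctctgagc

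As a check of the labels, the brighter Vhl probe set read 344, 358 and 467 on VhlhKO arrays, against 457, 639 and 839 on control arrays. The VhlhKO level was 61.7% of control, the groups overlapped, and an exact permutation test (two-sided, as all such tests here) gave p = 0.2, where 3 against 3 arrays cannot go below 0.1. Vhl remains intact in the other cells of an islet, and where the probes lie relative to the deleted part was not analysed here. Of 10 listed HIF-induced genes taken without a filter on brightness, 9 were higher in VhlhKO with a median log2 difference of 1.96, beside 51.6% of 18193 genes higher and a median of 0.01. This list was chosen with earlier results of these data known, so it is no independent check of the labels. Its exception, Vegfa, differed by -0.46 with VhlhKO signals below all control signals, as in 2.77% of the genes tested. Ak4, a mitochondrial adenylate kinase, passed (log2 difference 6.31, adjusted p 0.0103 by limma), and it was above the array medians on the VhlhKO arrays alone. Acinar digestive enzyme genes set the arrays numbered 03 apart. The summed signal of 22 such genes was 645130, 937980 and 14027 on VhlhKO 01, 02 and 03, against 604180, 734820 and 137840 on control 01, 02 and 03. Differences of hormone genes, and medians of cell-type markers, are also given without the arrays numbered 03 where that moves them by over 1.5 times.

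No islet hormone gene passed the test between genotypes. Of the 9 genes, 8 were bright enough to test, and 0 of 8 had an adjusted p under 0.05 by limma over 11609 genes, where 0.0172% of all genes did. None of the 8 had an unadjusted p under 0.05, where 2.58% of all genes did, and none had VhlhKO and control signals that did not overlap, where 6.75% of all genes did. The adjusted p was 0.9998 for each of the 8. With the replicate number as a block 0 of 8 passed as well (0.0517% of all genes), and 1 of 8, Ucn3, had an unadjusted p under 0.05 (5.03% of all genes). The log2 difference was above 0 for 7 genes and below 0 for Ucn3, with a median of 0.13, beside a median of -0.000277 over all genes tested, of which 50% were above 0. Exact permutation p-values over the 12 probe sets lay between 0.2 and 1. With 3 arrays a group, the intervals below show which sizes of change the data leave possible. In whole islets fewer cells of a type and less RNA per cell cannot be told apart.

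**Figure D1:**
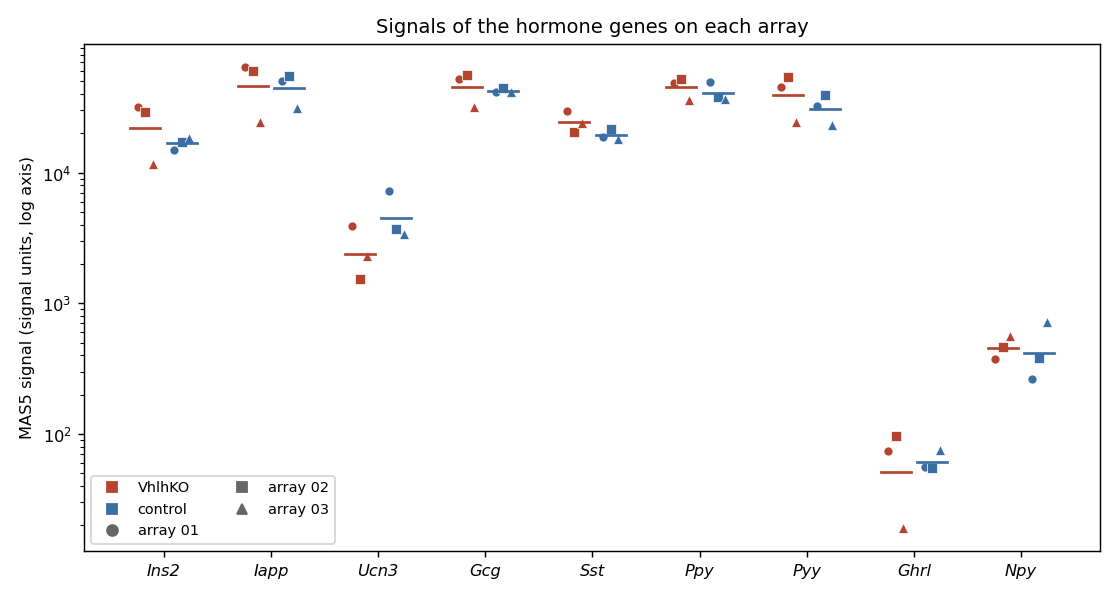
MAS5 signal (log axis) of each hormone gene on each array, through the probe set that represents the gene (for Ghrl its only one), with VhlhKO arrays left of control arrays, marker shapes for the array number and bars for geometric means. Groups overlap for all 9 genes, and the VhlhKO 03 signals of Ins2, Iapp, Gcg and Pyy lie well below those of VhlhKO 01 and 02.

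Ins2, 1 of the insulin genes of the mouse, gave 31477, 28889 and 11545 signal units on VhlhKO 01, 02 and 03, against 14810, 17273 and 18232 on control 01, 02 and 03. VhlhKO 01 and 02 thus lay above all controls and VhlhKO 03 below all of them. Mean log2 signals were 14.42 ± 0.80 in VhlhKO and 14.03 ± 0.16 in control (SD, n = 3 each). That gave a log2 difference of 0.39 (SE 0.36, 95% interval -0.43 to 1.21), a 1.31-fold level, which did not pass (limma adjusted p 0.9998). Without both arrays numbered 03 the difference was 0.91 with an interval of 0.48 to 1.35 and an unadjusted limma p of 0.001865, yet the adjusted p was 0.9995. Without VhlhKO 01 alone it was 0.13. The probe set is of the _x_at kind, whose probes can bind related transcripts, so the signal may hold more than Ins2.

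Iapp encodes islet amyloid polypeptide, a peptide that beta cells release with insulin and that slows gastric emptying. Its representative probe set, 1423510_at, gave 64210, 60047 and 24545 units on VhlhKO 01, 02 and 03, against 49923, 54714 and 31285 on control 01, 02 and 03. Both arrays numbered 03 were the low ones. VhlhKO lay above the control of the same number in the pairs 01 and 02 (0.36 and 0.13) and below it in the pair 03 (-0.35). The log2 difference of this probe set was 0.05 (SE 0.38, interval -0.80 to 0.90), 0.25 without both arrays numbered 03, and -0.20 without VhlhKO 01. The other 3 Iapp probe sets differed by 0.15 (1423509_a_at), 0.12 (1437323_a_at) and 0.01 (1456004_x_at), each with groups that overlapped.

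Not all of the 4 Iapp probe sets followed one another across arrays. Signals of 1423510_at spanned 2.62-fold over the 6 arrays, whereas those of 1456004_x_at spanned 1.4-fold. That set read 3516, 3606 and 3900 units on VhlhKO 01, 02 and 03, against 3186, 3394 and 4460 on control 01, 02 and 03. It was thus highest on the arrays numbered 03, where 1423510_at was lowest. Probe sets of 1 gene can lie on different parts of its transcripts, and their place was not analysed here.

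Ucn3 encodes urocortin 3, a peptide of mature beta cells that acts on delta cells and so favours somatostatin release. It had 3913, 1534 and 2301 signal units on VhlhKO 01, 02 and 03, against 7212, 3699 and 3359 on control 01, 02 and 03. VhlhKO 02 and 03 lay below all controls, while VhlhKO 01 lay above control 02 and 03, so the groups overlapped. Mean log2 signals were 11.23 ± 0.68 in VhlhKO and 12.13 ± 0.60 in control (SD, n = 3 each), a VhlhKO level of 53.6% of control. The log2 difference of -0.90 (SE 0.41, interval -1.83 to 0.03) had an unadjusted p of 0.056975 and did not pass (limma adjusted p 0.9998). Within the same-numbered pairs it was -0.88, -1.27 and -0.55, lower in 3 of 3, as were 11.3% of all genes. The fit with the number as a block gave an SE of 0.23, an unadjusted p of 0.004661 and an adjusted p of 0.726. The difference was -0.55 without control 01 and -1.25 without VhlhKO 01, and the exact permutation p was 0.3.

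Gcg, whose precursor gives glucagon in alpha cells, read 51542, 55684 and 31892 units on VhlhKO 01, 02 and 03, against 41548, 44116 and 41423 on control 01, 02 and 03. Controls lay close together, and the VhlhKO arrays lay on both sides of them. Its log2 difference was 0.09 (SE 0.24, interval -0.45 to 0.63), 0.32 without both arrays numbered 03, and -0.06 without VhlhKO 02. Quantile normalization turned it to -0.01.

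Sst encodes somatostatin, which delta cells release to restrain insulin and glucagon secretion. Signals were 29497, 20584 and 24130 units on VhlhKO 01, 02 and 03, against 18565, 21615 and 18157 on control 01, 02 and 03. VhlhKO 01 and 03 exceeded every control, while VhlhKO 02 lay just under control 02. The log2 difference was 0.34 (SE 0.22, interval -0.16 to 0.83), a 1.26-fold level, and did not pass (exact permutation p 0.2). It stayed between 0.20 and 0.46 in the fits that left out 1 array.

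Ppy and Pyy, neighbours on chromosome 11, encode pancreatic polypeptide and peptide YY, relatives that act through Y receptors. Ppy signals were 48072, 52007 and 36129 on VhlhKO 01, 02 and 03, against 49370, 38111 and 36319 on control 01, 02 and 03. VhlhKO 01 and VhlhKO 03 each came within 0.04 log2 units of the control of the same number (-0.038 and -0.0076), and the whole difference of 0.13 (SE 0.22, interval -0.36 to 0.63) came from the pair numbered 02, at 0.45. Without both arrays numbered 03 it was 0.21. Pyy signals were 45179, 53752 and 24506 on VhlhKO 01, 02 and 03, against 32110, 39523 and 23270 on control 01, 02 and 03. Both arrays numbered 03 read lowest, as they did for Iapp through 1423510_at. Pyy differed by 0.34 (SE 0.32, interval -0.39 to 1.06), and by 0.49, 0.44 and 0.07 in the pairs 01, 02 and 03. It was the 1 member higher in all pairs, as were 13.7% of all genes tested. Without both arrays numbered 03 the difference was 0.47 with an unadjusted limma p of 0.03355 and an adjusted p of 0.9995.

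Npy and Ghrl lay far from the top of the arrays' range. Npy, a neuropeptide of sympathetic nerves that islet cells also make at some stages, had 372, 458 and 559 units on VhlhKO 01, 02 and 03, against 265, 381 and 722 on control 01, 02 and 03. The VhlhKO arrays all lay inside the control range. Its log2 difference was 0.13 (SE 0.39, interval -0.76 to 1.02), at 0.53 without control 03, -0.20 without control 01 and 0.38 without both arrays numbered 03. Ghrl, the ghrelin gene, had 73.4, 95.5 and 19.1 units on VhlhKO 01, 02 and 03, against 55.7, 55.3 and 74.9 on control 01, 02 and 03. It stayed below the array medians of 101.9 to 122.7 on all 6 arrays and was not tested with limma. Its log2 difference of -0.26 (exact permutation p 0.9) turned to 0.45 without VhlhKO 03 and to 0.59 without both arrays numbered 03.

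**Figure D2:**
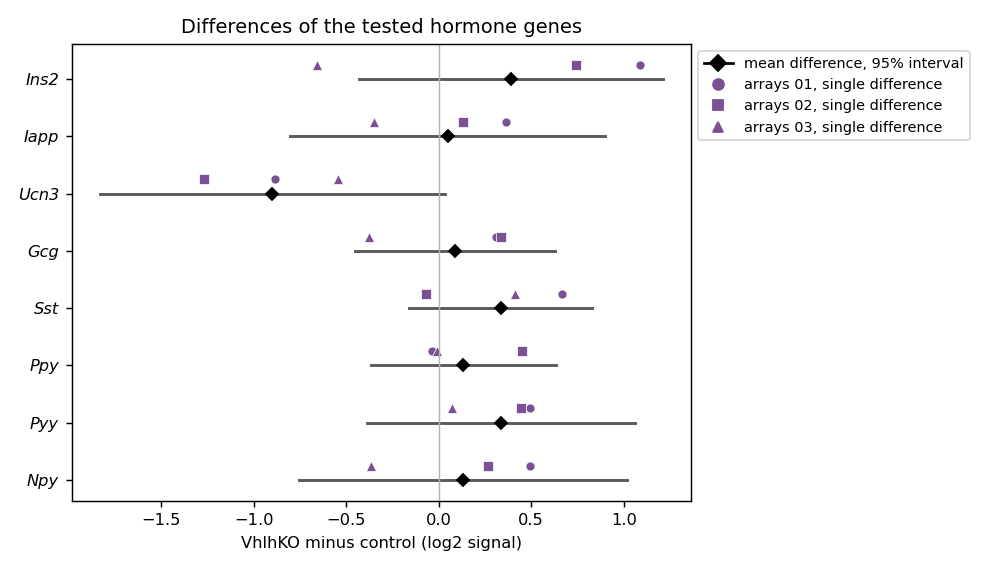
VhlhKO minus control log2 difference of the 8 tested genes: diamonds are limma's mean differences with 95% intervals, and coloured markers are the single differences between same-numbered arrays. Every interval includes 0. Ucn3 alone has all 3 single differences below 0, and those of Ins2, at 1.09, 0.74 and -0.66, are spread widest.

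Set against the highest signal of each array, several hormones lay near the top of the range, where brightness may no longer follow RNA amount. The highest signals were 75380, 76826 and 40917 on VhlhKO 01, 02 and 03, against 55556, 60472 and 61834 on control 01, 02 and 03. Gcg stood at 68.4% to 77.9% of the highest signal in VhlhKO and 67.0% to 74.8% in control. Ppy was at 63.8% to 88.3% in VhlhKO and 58.7% to 88.9% in control, and Pyy at 59.9% to 70.0% and 37.6% to 65.4%. Iapp through 1423510_at ranged over 60.0% to 85.2% in VhlhKO and 50.6% to 90.5% in control. Ins2 stood at 28.2% to 41.8% in VhlhKO and 26.7% to 29.5% in control, and Sst was at 26.8% to 59.0% and 29.4% to 35.7%. Ucn3 took 2.00% to 5.62% of the highest signal in VhlhKO and 5.43% to 13.0% in control, so it was far from the top.

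Of 24 probe sets above 50% of the highest signal on every array, 4 belonged to hormone genes: Gcg, Ppy and Iapp through 1423510_at and 1437323_a_at. Gcg followed the array maximum closely, with a root mean square difference of 0.074 log2 units between the centred profiles over the 6 arrays. Iapp through 1437323_a_at and 1423509_a_at gave 0.0794 and 0.09. Not every bright set followed it as closely: Ppy gave 0.237, Pyy 0.287 and Iapp through 1423510_at 0.317, with Ins2 at 0.239. Sst at 0.365 and Ucn3 at 0.785 ran further apart from it. As a share of the highest signal Gcg differed by 0.03 on the log2 scale, Iapp through 1423510_at by -0.01 and Ucn3 by -0.96 (exact permutation p 0.8, 1 and 0.2). Ins2 differed by 0.33 and Sst by 0.27 on this scale (exact permutation p 0.3 and 0.6). Compression at the top of the range was not tested.

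**Figure D3:**
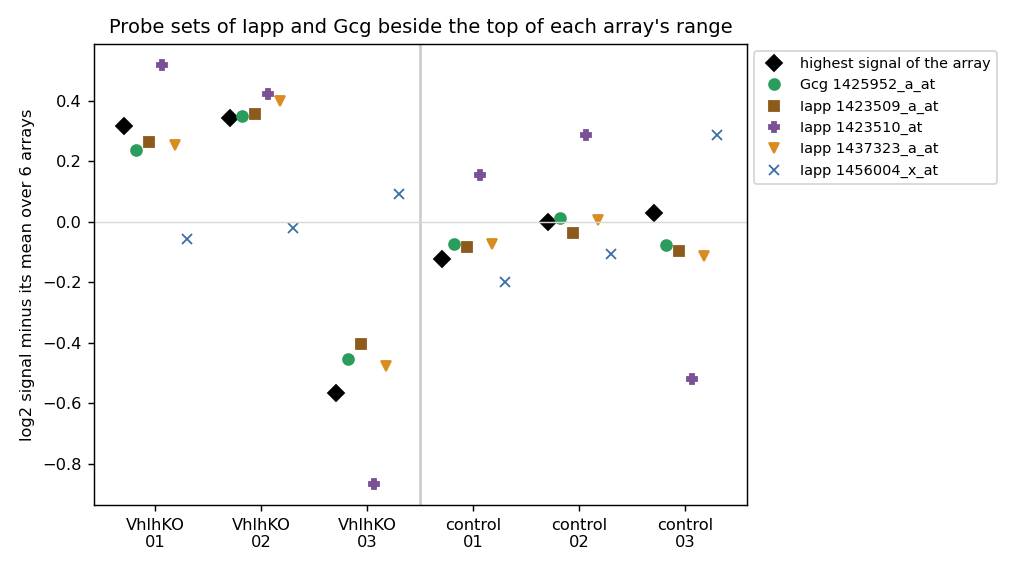
Log2 signal of Gcg and of the 4 Iapp probe sets on each array, each centred on its own mean over the 6 arrays, beside the highest signal of the array. Gcg and both Iapp sets of the _a_at kind lie close to the array maximum on every array, Iapp 1423510_at falls furthest on both arrays numbered 03, and Iapp 1456004_x_at does not.

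The genes nearest to each hormone by the same measure of likeness, over the 6 arrays and all genes tested, differed in how close they came. Gcg was nearest to Cpe, the carboxypeptidase that trims prohormones (0.0267 log2 units), then to Ttr, transthyretin (0.0458), and Lcmt1 (0.0528). Cpe and Ttr also had probe sets above 50% of the highest signal on every array. Iapp was nearest to Kdm4a (0.0565), Ppy to Scnn1g (0.056), Pyy to 2410006H16Rik (0.0648), Npy to 2410137M14Rik (0.073) and Sst to Stub1 (0.0827). Ins2 was nearest to Spns2 (0.134) and Ucn3 to Sec31a, a coat protein of vesicles that leave the endoplasmic reticulum (0.236), so these hormones had the least alike neighbours. With 6 arrays and 11609 genes close profiles are easily found, and none of these distances was tested.

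Genes that process prohormones showed no call between genotypes. Of 11 listed, 8 were tested, 3 were higher and 5 lower, 0 passed (0.0172% of all genes) and the median log2 difference was -0.04. The members of lowest p were Furin, a convertase of the secretory pathway (-0.36, SE 0.32), its relative Pcsk6 (-0.20, SE 0.31) and Cpe (0.12, SE 0.24). Pcsk1, the convertase that begins proinsulin cleavage, differed by 0.07. Granins and other granule proteins were alike in this, with 7 of 11 tested genes higher, 0 passing and a median of 0.02. Of this list, Vgf (0.76, SE 0.81), Ptprn2 (-0.22, SE 0.24) and Slc30a8, the zinc transporter of insulin granules (-0.25, SE 0.30), had the lowest p.

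Regulators of hormone genes and hormone receptors held no passing gene either, where 0.0172% of all genes tested passed. Among 15 tested regulators 6 were higher and 9 lower, with a median of -0.07. Hhex, a factor of delta cells, differed by 0.76 (SE 0.37), Hnf4a by -0.58 (SE 0.30) and Neurod1, a factor that activates the insulin gene, by -0.41 (SE 0.22). Of 23 receptors and partners with a probe set 12 were tested, 6 higher and 6 lower. Glp1r, the incretin receptor of beta cells, differed by -0.83 (SE 0.39), Crhr1, a receptor of the corticotropin-releasing hormone family, by -0.73 (SE 0.48) and the glucagon receptor Gcgr by -0.50 (SE 0.34). Of the 15 regulators only Neurod1, and of the 12 receptors only Glp1r, had signals that did not overlap between groups, with VhlhKO lower. Among all genes tested 6.75% did not overlap in either direction, and 2.77% with VhlhKO lower.

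Peptides from outside the classical islet set were given by a further list. Of 30 listed, 28 had a probe set and 9 were bright enough to test, of which 0 passed (0.0172% of all genes). A gene could enter the test through VhlhKO arrays alone, so counts among the 9 are no support. Over all 28 without a filter 23 were higher, with a median log2 difference of 0.53, beside 51.6% of 18193 genes higher and a median of 0.01. Adm, which encodes the vasodilator adrenomedullin and is a HIF target, had 282, 380 and 306 units on VhlhKO 01, 02 and 03, against 35.7, 51.9 and 41.0 on control 01, 02 and 03, with groups that did not overlap and an adjusted p of 0.166. Vip, a peptide of islet nerves, had 1975, 6563 and 10601 units on VhlhKO 01, 02 and 03, against 1954, 5583 and 976 on control 01, 02 and 03. Vip was thus near its control in the pairs numbered 01 and 02 and higher in the pair numbered 03. Pdyn, an opioid precursor, was also highest on VhlhKO 03 (log2 difference 1.59, SE 0.71). Unlike Vip, Pdyn was higher in the pair 02 as well, with 0.53, 1.80 and 2.43 in the pairs 01, 02 and 03. Without both arrays numbered 03 the median of the tested members was 0.15 instead of 1.22.

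**Figure D4:**
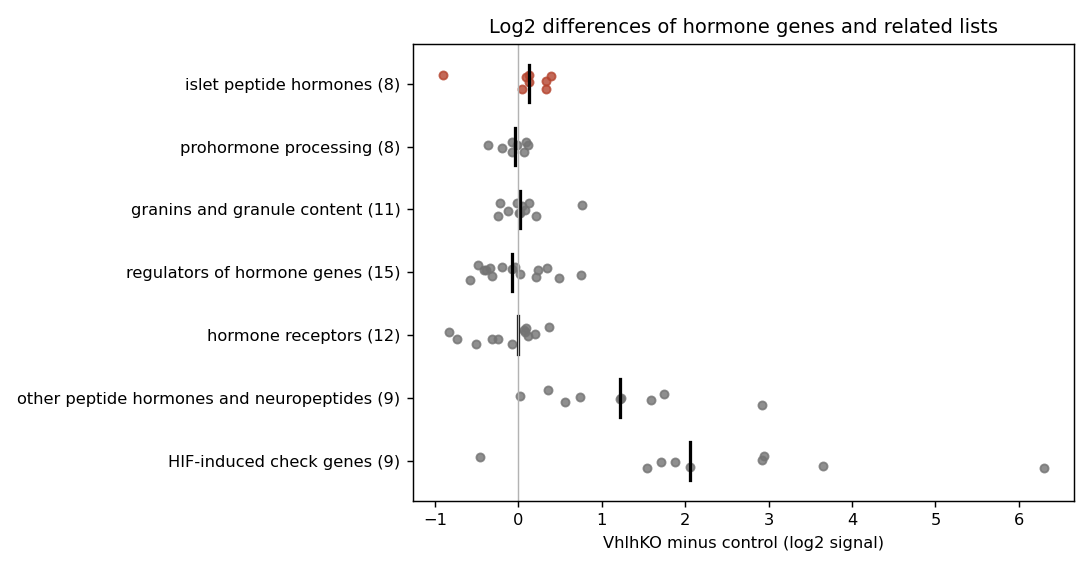
VhlhKO minus control log2 differences of tested genes, 1 point a gene with vertical jitter, for the hormone genes and 6 related lists, with the number tested in brackets and black bars for medians. Hormones, processing enzymes, granins, regulators and receptors have medians between -0.07 and 0.13; the median is 1.22 for other peptides and 2.06 for HIF-induced genes, of which some entered through VhlhKO arrays alone. Without the filter those medians are 0.53 and 1.96, and without both arrays numbered 03 that of the tested other peptides is 0.15.

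Markers of islet cells are given beside these values, with the hormone genes left out of the lists. Of 12 tested beta-cell markers 1 was higher and 11 lower (median -0.31), and the sign of Ucn3 was the same while that of Ins2 and Iapp was the opposite. Their summed signal ranged over 83630 to 101600 in VhlhKO and 95730 to 129400 in control. Those of highest mean signal were G6pc2 (-0.06) and the glucose transporter Slc2a2 (-0.35). Of alpha-cell markers 4 of 4 were higher (median 0.30, sums of 35050 to 60370 in VhlhKO and 43150 to 50920 in control), the brightest being Ttr and Irx1. Of delta-cell markers 3 of 3 were higher (median 0.59, sums of 10540 to 14700 in VhlhKO and 8208 to 10510 in control), beside the Sst difference of 0.34, with Rbp4 and Hhex brightest. The delta-cell median was 0.17 without both arrays numbered 03, 0.21 without VhlhKO 03, 0.35 without control 01 and 1.07 without VhlhKO 01. The beta-cell median was -0.15 without control 01, and the alpha-cell median ranged from 0.07 without VhlhKO 02 to 0.47 without control 02. Without the filter on brightness 1 of 12 beta-cell, 4 of 5 alpha-cell and 4 of 4 delta-cell markers were higher. No gene of these lists passed, where 0.0172% of all genes tested did.

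Among markers of other cell types no gene passed either (0.0172% of all genes tested did), and the counts below are of directions alone. All 21 tested acinar markers were lower (median -1.08), led in brightness by Cela1 and Cpb1, and the median was 0.19 without both arrays numbered 03 and 0.95 without VhlhKO 03 alone. Duct markers were higher in 7 of 11 (Epcam and Krt8 brightest), endothelial in 15 of 15 (Kdr and Esam), fibroblast and matrix in 16 of 16 (Dcn and Col3a1), neural and Schwann in 10 of 13 (Th and Mbp) and leukocyte in 8 of 11 (Csf1r and H2-Eb1). The brightest neural genes were themselves lower in VhlhKO, Th at -0.33 and Mbp at -0.41. Without both arrays numbered 03 the matrix median was 0.53 instead of 1.23, the neural median 0.19 instead of 0.65 and the endothelial median 0.37 instead of 0.61. Without VhlhKO 03 alone the matrix median was 0.56, the endothelial 0.40 and the leukocyte 0.09 instead of 0.30. The duct median of 0.22 was -0.03 without control 03. Id4, the 1 tested gene of the PP and epsilon list, differed by 0.95 (SE 0.50). Without the filter 2 of the 3 genes of that list with a probe set were higher, with a median of 0.07. A gene could enter the other counts through VhlhKO arrays alone as well. With no filter 8 of 12 duct, 15 of 16 endothelial and 17 of 17 matrix markers were higher, beside 51.6% of 18193 genes. So were 11 of 14 neural, 10 of 15 leukocyte and 1 of 22 acinar markers. Matrix sums were 8868 to 31750 in VhlhKO and 4797 to 9571 in control, and acinar sums 14030 to 938000 and 137800 to 734800. No marker signal was at 0. With the acinar mean as a covariate Ins2 differed by 0.57, Iapp by 0.28, Gcg by 0.20, Sst by 0.34, Ppy by 0.21, Pyy by 0.52, Npy by 0.007 and Ucn3 by -0.88, each with an adjusted p of at least 0.999. The part of other cell types in the hormone values was not tested beyond this.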

How the data were processed

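The deposited values are MAS5 signal intensities per probe set on a linear scale, produced by the authors in GCOS 1.4 by the MAS5 method, as the submitters' processing notes say. A 2% trimmed mean of 500.003 on every array shows that they were scaled to 500. Per the labels' protocols, RNA was amplified in 2 cycles before hybridisation, and no replicate was pooled as far as they say. Amplification and the scanner's upper range can compress bright signals. Precision is limited by having 3 arrays a group.

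Of 45037 probe sets without controls, 34945 had 1 symbol, 932 several and 9160 none. Each gene was read through 1 probe set, that with the highest log2 signal on average (_x_at sets only where there was no other), and tested if above the array median on at least 3 of 6 arrays, which left 11609 genes. The genotypes were compared on the log2 scale by limma 3.58.1 in R 4.3.3 (lmFit, eBayes with intensity trend), with Benjamini-Hochberg adjustment over all genes and a threshold of 0.05. The fit was tested on simulated data. Single values had exact permutation tests (scipy 1.17.1). Adjusted p-values come from limma. Alternatives were a replicate block, other scalings, filters, probe set rules and weights, an acinar covariate, each array left out and, chosen after seeing the data, both arrays numbered 03 left out.

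Members and lists were chosen with earlier results of these data known. Named genes were the members, Vhl, the nearest profiles, the passing genes or 3 of lowest p of each list and the 2 brightest markers of each cell type. Vegfa, Pcsk1, Nppb, Ucn2 and Gal were named outside this rule after their values were seen. Same-numbered arrays share age and sex, and their deviations from the group means correlated at 0.148, 0.416 and 0.425 for 01, 02 and 03. VhlhKO 02 with control 01 gave 0.137, close to the value of the pair 01. The arrays numbered 03 also had the lowest acinar signal of their genotype. These correlations do not settle whether the samples were paired. The main fit did not use the numbers, and the fit with the number as a block is given as an alternative.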

Additional observations from a re-analysis of the deposited data

Results flagged for a closer look

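Sst differed by -0.0705 on the log2 scale between the arrays numbered 02, which came from females, whereas the male pairs 01 and 03 gave 0.668 and 0.41. Ppy went the other way, at 0.448 in the pair 02 and at -0.0384 and -0.00757 in the pairs 01 and 03. Both were flagged by sign alone, because the female pair had the other sign from both male pairs. The share of all genes with such signs was not counted, so the flags do not mark these genes as unusual. There was 1 female array a genotype and age differed between the pairs, so the difference was not tested, and the male Ppy values are close to 0.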

How the results depend on the processing

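None of the 8 tested hormone genes passed under any of the 18 other fits, and the lowest adjusted p was 0.726, for Ucn3 with the replicate block. The block changed no call among the hormones. Ins2, Sst, Ppy, Pyy and Ucn3 kept their direction in all of these fits. Iapp turned to -0.085 with quantile normalization, -0.014 with each array divided by its highest signal and -0.15 with array weights, and ranged from -0.20 to 0.50 with 1 array left out. Gcg turned to -0.011 with quantile normalization and ranged from -0.063 to 0.34 with 1 array left out, and Npy from -0.20 to 0.53. The causes were not tested. Leaving out 1 array gave Ins2 0.13 to 0.85, Sst 0.20 to 0.46, Ppy 0.03 to 0.29, Pyy 0.11 to 0.67 and Ucn3 -1.25 to -0.55. Over all genes 2 passed by limma, 6 with the replicate block, 7 with each array divided by its highest signal, 4 with log2(signal + 32), 1 with all 6 arrays above the median, 4 with every probe set on its own and 0 without both arrays numbered 03, and between 0 and 5 with 1 array left out. Without VhlhKO 01 or VhlhKO 03 0 genes passed, while the unadjusted limma p was under 0.05 for 498 and 254 genes. Dividing by the highest signal moved the median of all genes to -0.06.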

Other observations

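From the list of peptides outside the classical islet set, Nppb, Ucn2 and Gal are given here, chosen after their values were seen. Nppb, which encodes the natriuretic peptide BNP, gave 80.4, 98.4 and 59.5 signal units on VhlhKO 01, 02 and 03, against 9.95, 13.4 and 23.9 on control 01, 02 and 03. Ucn2, the urocortin related to Ucn3, gave 75.4, 113.6 and 43.9 on VhlhKO 01, 02 and 03, against 34.3, 9.12 and 16.3 on control 01, 02 and 03. In Nppb and Ucn2 the groups did not overlap, but all their values lay below the medians of their arrays, so neither was tested and no fold is given. The share of 6.75% without overlap is of the brighter genes that were tested, and no share was counted for genes as dim as these. Gal, the galanin gene, was bright enough to test and did not pass (log2 difference 0.56, limma adjusted p 0.9998). It gave 466, 1662 and 85.8 units on VhlhKO 01, 02 and 03, against 213, 698 and 139 on control 01, 02 and 03, with the arrays numbered 02 highest in both genotypes.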
